A study of Mus musculus with 7 samples.

Results

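The genes described here build and regulate the actin cytoskeleton and its anchorage at focal adhesions, and were chosen as a list of 54 symbols, from actin itself to small GTPases and their effectors. All 54 were rows of the deposited count table, which held 24552 gene symbols. They were read in EpCAM-positive cholangiocytes, the epithelial cells lining the bile ducts, freshly isolated from livers of Foxp3GFPDTR mice. This strain carries a diphtheria toxin receptor and GFP under Foxp3, the factor that defines regulatory T cells, so that the toxin acts on cells that express Foxp3. Mice in the DT group (3 libraries) received diphtheria toxin at 1 µg/kg and mice in the PBS group (4 libraries) received saline, in both cases into the peritoneum every 48 h. Both groups had the same genotype and were fed DDC, a compound that injures bile ducts, for 10 days, so no library here comes from an uninjured liver. The labels do not state age or sex, or whether each library was 1 animal, so p-values speak of the spread among these libraries and some of it may be technical.

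Actin filaments grow from monomers that profilin and thymosins hold in reserve, are branched by the Arp2/3 complex and cut by cofilin and gelsolin. Non-muscle myosin II pulls on filaments stabilised by tropomyosin and bundled by alpha-actinin and filamin, and the force reaches the matrix through focal adhesions that contain talin, vinculin, paxillin and zyxin. Small GTPases such as Rhoa, Rac1 and Cdc42 switch these assemblies through formins and the ROCK kinases. In bile duct epithelium the same machinery supports the apical microvilli, the cell cortex and the shape of the duct.

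Levels are given as CPM, counts divided by the library total after TMM scaling of that total. The library kit reads the 3′ ends of transcripts, so a count does not grow with transcript length. Total counts ran from 5683824 to 6285624 in DT and from 4805018 to 5499832 in PBS. The libraries carried the duct markers of the label, with Spp1 at 13745 ± 1811 CPM in DT and 11098 ± 1856 CPM in PBS (SD, n = 3 and 4), Epcam at 743 CPM in DT and 876 CPM in PBS on average and Krt19 at 627 CPM in DT and 410.2 CPM in PBS on average. The 12 duct markers held 2.33% to 2.42% of counts in DT libraries and 2.07% to 2.41% in PBS libraries. Of 16 markers of smooth muscle, myofibroblasts and stellate cells, 7 had 0 counts everywhere, among them Myh11 and Des, and the 16 summed to 25 to 861 counts in DT and 7 to 1029 in PBS. The 12 hepatocyte markers held 0.371% to 0.451% of counts in DT and 0.216% to 0.330% in PBS, without overlap. Macrophage and monocyte markers held 0.148% to 0.169% in DT and 0.0910% to 0.193% in PBS, endothelial markers summed to at most 348 counts in a library, lymphocyte markers to at most 195 and neutrophil markers to at most 1806. Y-linked genes had 1681, 1045 and 880 counts in DT 1 to 3, against 2048, 0, 0 and 0 counts in PBS 1 to 4, so the libraries with and without Y-linked reads divided unevenly between the groups. The nuclear RNA Malat1, whose share moves with RNA quality and with the nuclear fraction, held 0.559% to 0.685% of counts in DT and 1.11% to 1.43% in PBS, without overlap, and its part in the group differences was not tested. In bulk libraries such as these, fewer cells of a type and less RNA per cell cannot be told apart.

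The actin and adhesion genes showed no member that passed the edgeR quasi-likelihood test in either direction, and 37 of the 51 tested had a log2 fold change of under 0.5 in size, many with an SE as large. Together the 54 genes took 2.88% ± 0.16 of all counts in DT (SD, n = 3) and 2.97% ± 0.09 in PBS (SD, n = 4), a difference within the spread between libraries (exact permutation test over libraries, two-sided, p = 0.400, where 35 arrangements allow no p below 0.0571). A filter on low counts left 51 members among 7688 tested genes, and the members Actg1, Myl9 and Tpm2 did not reach it. After Benjamini-Hochberg adjustment over all tested genes, 0 of the 51 were higher in DT and 0 were lower, where the table as a whole had 0% higher and 0.039% lower. Every member had an edgeR adjusted p of 1.00. At an unadjusted p below 0.05 stood 3 lower members and 0 higher ones, the 3 being Zyx, Iqgap1 and Msn, which is 5.88% of the members beside 2.11% of all tested genes. By DESeq2, 0 passed as higher (0.377% of all tested genes) and 2 as lower, Zyx and Iqgap1, where 1.07% of all tested genes did. On simulated counts made from these libraries DESeq2 called many unchanged genes and edgeR missed most changes of the sizes seen here, so a DESeq2 call alone is weak and a gene that did not pass by edgeR may still differ. By limma-voom with sample weights, 0 passed in either direction (0.078% of all tested genes each way).

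Fold changes are log2 of DT over PBS. Of the 51 tested members 22 were positive and 29 negative, with a median of -0.04, beside -0.02 over all 7688 genes, of which 50.7% were negative. Single libraries decide this balance: the members' median was 0.086 without DT 1 and -0.25 without DT 3, and for 26 of the 51 the sign turned when some 1 library was left out. The typical size of a member's log2 fold change was small, with a median absolute value of 0.32, and 0.23 among the 28 members whose average log2 CPM reached 8. All tested genes of that level, 733 in number, had a median absolute log2 fold change of 0.33. All DT libraries were lower than all PBS libraries for 4 members, Zyx, Iqgap1, Flna and Sptbn1, which is 7.84% of the members beside 2.58% of all tested genes. The reverse order, all DT libraries above all PBS libraries, held for 1 member, Cdc42, which is 1.96% of the members beside 3.73% of all tested genes. Among these better-read genes the shares were 10.7% of members beside 5.59% of genes for lower values, and 3.57% beside 7.37% for higher values.

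**Figure D1:**
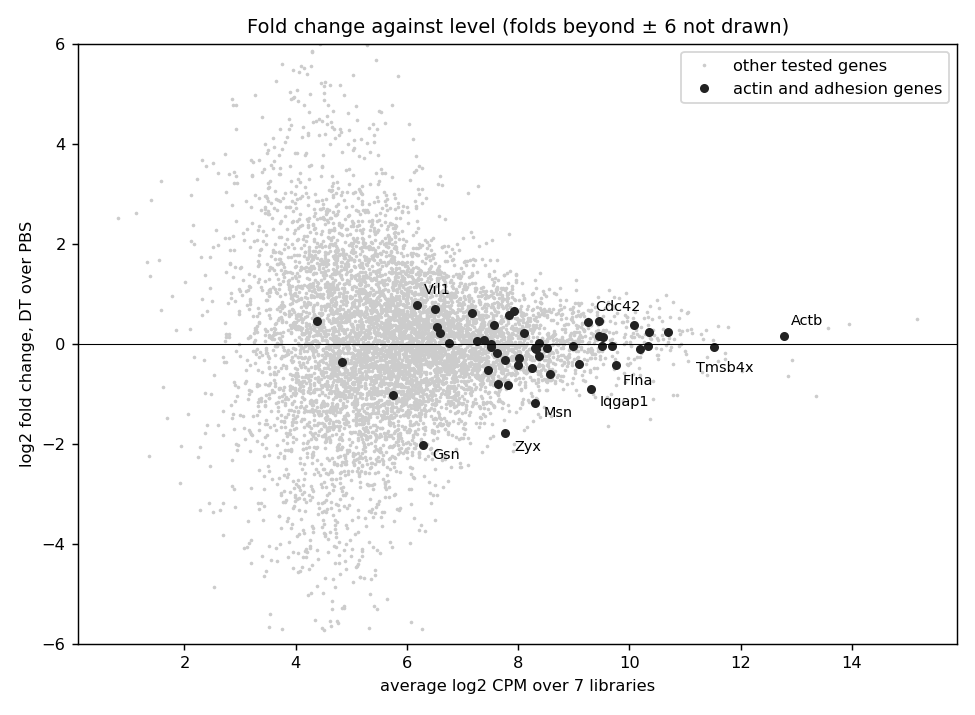
Log2 fold change of DT over PBS (edgeR, vertical axis) against average log2 CPM over the 7 libraries (horizontal axis), with the 51 tested actin and adhesion genes in black and the other tested genes in grey. The members sit on the right, well-read side of the cloud and mostly within 1 of the zero line, with Gsn at -2.02, Zyx at -1.77, Msn at -1.18 and Iqgap1 at -0.91 below it, and 176 tested genes with a fold beyond 6 either way, none of them a member, are not drawn.

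Actin itself was read almost wholly from 1 gene. Actb, which encodes cytoplasmic beta-actin, was at 6050.0, 8171 and 8112 CPM in DT 1 to 3, against 6791, 6902, 6143 and 6782 CPM in PBS 1 to 4. DT 1 was the lowest of the 7 libraries and DT 2 and DT 3 the highest, so the groups overlapped. Its log2 fold change was 0.16 (SE 0.16, edgeR unadjusted p = 0.326), and its share of all counts was 0.709% ± 0.060 in DT and 0.658% ± 0.042 in PBS (SD, n = 3 and 4). Actg1, which encodes the gamma-actin that most non-muscle cells make beside beta-actin, had 1, 22 and 0 counts in DT 1 to 3, against 3, 3, 1 and 0 counts in PBS 1 to 4. These counts are at or near the limit of 3 that a count of 0 allows in a library, apart from DT 2. To see whether such reads could be shared, every stretch of 50 bases in the last 300 bases of each annotated protein-coding transcript was looked up in all other annotated mouse transcripts (GENCODE M21, GRCm38). For Actg1 44.5% of the stretches recurred in transcripts of 19 other genes, though none (0%) in the transcript that reaches the annotated end of the gene, and for Actb 12.4% recurred in 15 other genes. How the authors counted reads with several matches is not given in the sources used here, so the Actg1 level was not read as expression or as its absence. Among the 54 members, 42 shared no such stretch with another gene. Myl6, Myl12a, Myl12b, Tpm3, Lasp1, Cfl1, Tmsb10, Arpc1b, Cnn3 and Rhoa shared between 0.1% and 39.3%, which makes their counts less certain in this respect than the others. At the annotated gene end the largest share was 76.6%, for Tmsb10, which matched Gm9844, and for Tpm3 it was 46.5%. In the last 300 bases of the gene, 6 members had an exon of another gene on the opposite strand, Actn4, Vcl, Cfl1, Ezr, Vil1 and Rac1. On the same strand 0 had one. Whether the counting kept the strands apart is not given in the sources used here.

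Non-muscle myosin II, the motor that contracts actin bundles, was carried by the heavy chain Myh9 and the regulatory light chain Myl12a. Myh9 was at 1028, 1273 and 1449 CPM in DT 1 to 3, against 1048, 1254, 779.9 and 788 CPM in PBS 1 to 4. The groups overlapped, with DT 3 highest and PBS 3 and PBS 4 lowest, and the log2 fold change was 0.37 (SE 0.28, edgeR unadjusted p = 0.192). Myl12a was at 1159.5, 993 and 1650.0 CPM in DT 1 to 3, against 1571, 966, 1129.8 and 1525 CPM in PBS 1 to 4. Its highest values were in DT 3, PBS 1 and PBS 4 and its fold change was -0.03 (SE 0.27, edgeR unadjusted p = 0.901). The other heavy chains, Myh10 and Myh14, averaged 24.3 CPM in DT and 17.7 CPM in PBS for Myh10, and 33.3 CPM in DT and 68.2 CPM in PBS for Myh14. They had 0 counts in DT 1, and Myh10 also in PBS 1, and their log2 fold changes of 0.46 and -1.03 had SEs of 3.13 and 2.38. The second regulatory chain Myl12b averaged 307 ± 116 CPM in DT and 196 ± 125 CPM in PBS and the essential light chain Myl6 141 ± 66.5 CPM in DT and 203 ± 106 CPM in PBS (SD, n = 3 and 4), with log2 fold changes of 0.65 and -0.53. Without PBS 1, the library lowest for Myl12b, its log2 fold change was 0.27. Myl9, the regulatory light chain known from smooth muscle, had 0 counts in all 7 libraries, as did the smooth muscle markers Myh11 and Des. By counting error alone 0 counts allows at most 3 in a library, or 0.624 CPM of the unscaled total in the shallowest. A value of 0 says less than this in practice, since among all genes 43.5% of values were 0 where the other libraries of the group averaged 100 to 200 counts, and 25.6% at 200 to 500 counts.

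Tropomyosins, which wrap filaments and set which motors and cutters may bind, were read mainly from Tpm1 and Tpm4. Tpm1 was at 629, 738 and 789 CPM in DT 1 to 3, against 651, 745, 891 and 675 CPM in PBS 1 to 4. All 7 libraries lay in a narrow band and the log2 fold change was -0.04 (SE 0.31, edgeR unadjusted p = 0.892). Tpm4 was at 876, 631 and 975 CPM in DT 1 to 3, against 254, 506, 946 and 695 CPM in PBS 1 to 4. The values overlapped, PBS 1 was the lowest library, and the log2 fold change of 0.46 (SE 0.35, edgeR unadjusted p = 0.196) was 0.20 without PBS 1. Tpm3 averaged 214 ± 17.2 CPM in DT and 287 ± 68.6 CPM in PBS (log2 fold change -0.42). Tpm2, which is abundant in contractile cells, had 0, 0 and 0 counts in DT 1 to 3, against 0, 0, 294 and 178 counts in PBS 1 to 4. It was not tested, and no fold is given because a count of 0 was common at this level.

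Among the crosslinkers the filamin gene stood apart from the alpha-actinins. Flna encodes filamin A, which joins filaments at wide angles and ties them to integrins. It was at 672, 761 and 729 CPM in DT 1 to 3, against 842, 964, 1004 and 1076 CPM in PBS 1 to 4. All 3 DT libraries lay under the lowest PBS library, at 721 ± 44.9 CPM in DT and 971 ± 98.2 CPM in PBS (SD, n = 3 and 4), with a log2 fold change of -0.43 (SE 0.29, edgeR unadjusted p = 0.15) and a DESeq2 adjusted p of 0.698. Its range was -0.50 to -0.38 when 1 library was left out, and the value was -0.22 when Y-linked reads (present or not) entered the fit as a covariate. In that fit the group difference is in effect one between the DT libraries and PBS 1, the single PBS library with Y-linked reads, and the median over all tested genes was 0.67, so that its values stand against that shift. Flna lies on the X chromosome, as do the members Msn and Tmsb4x, whose log2 fold changes were -1.18 and -0.06. The alpha-actinin gene Actn1, whose product bundles stress fibres, was at 2118, 1509 and 1819.6 CPM in DT 1 to 3, against 1660.4, 1864, 1196 and 1446 CPM in PBS 1 to 4. DT 1 was the highest library and PBS 3 the lowest, the groups overlapped, and the log2 fold change was 0.24 (SE 0.25, edgeR unadjusted p = 0.341). Actn4, its close relative at cell borders and in motile cells, averaged 1129 ± 182 CPM in DT and 1207 ± 208 CPM in PBS (log2 fold change -0.10).

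The widest difference at a focal adhesion gene was that of Zyx, which encodes zyxin, a LIM protein that moves to strained actin bundles and brings Ena/VASP proteins to them. It was at 48.0, 79.3 and 147 CPM in DT 1 to 3, against 495, 224, 179 and 353 CPM in PBS 1 to 4. All 3 DT libraries were below all 4 PBS libraries, DT 1 was the lowest and PBS 1 the highest, and the spread was wide in both groups, at 91.5 ± 50.7 CPM in DT and 313 ± 142 CPM in PBS (SD, n = 3 and 4). The log2 fold change was -1.77 (SE 0.63, edgeR unadjusted p = 0.00709). It did not pass by edgeR (adjusted p = 1.00) or limma-voom (adjusted p = 0.706) and passed as lower by DESeq2 (adjusted p = 0.0436). Across the 7 fits that left out 1 library the log2 fold change ran from -2.30 (without DT 3) to -1.48 (without PBS 1). With the Y-linked covariate it was -2.44, but that fit in effect compares DT with PBS 1 alone, the library highest for Zyx. The value therefore does not show how the difference would stand apart from sex. Zyx has no 50-base stretch at its ends in common with another annotated gene.

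The 6 other adhesion genes did not share that pattern of separate groups. Lasp1, a LIM and SH3 protein that binds zyxin, was at 295, 648 and 550.1 CPM in DT 1 to 3, against 617, 631, 529 and 263 CPM in PBS 1 to 4. Its lowest values were in PBS 4 and DT 1 and its log2 fold change was -0.03 (SE 0.38, edgeR unadjusted p = 0.928). Vcl (vinculin) averaged 178 CPM in DT and 186 CPM in PBS, Tln1 (talin, which activates integrins) 156 CPM in DT and 149 CPM in PBS, and Pxn (paxillin, a docking protein) 106 CPM in DT and 90.4 CPM in PBS. Their log2 fold changes were -0.06, 0.07 and 0.22. DT 1 was the lowest of the 7 libraries for each of these genes, and without it the log2 fold changes were 0.34, 0.61 and 0.62. Vasp, the filament elongation factor that zyxin recruits, averaged 179 ± 103 CPM in DT and 116 ± 34.3 CPM in PBS (log2 fold change 0.62, and 0.062 without DT 3), and Pdlim7, a PDZ and LIM protein of actin bundles, averaged 156 ± 94.6 CPM in DT and 276 ± 81.6 CPM in PBS (log2 fold change -0.82, edgeR unadjusted p = 0.168).

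**Figure D2:**
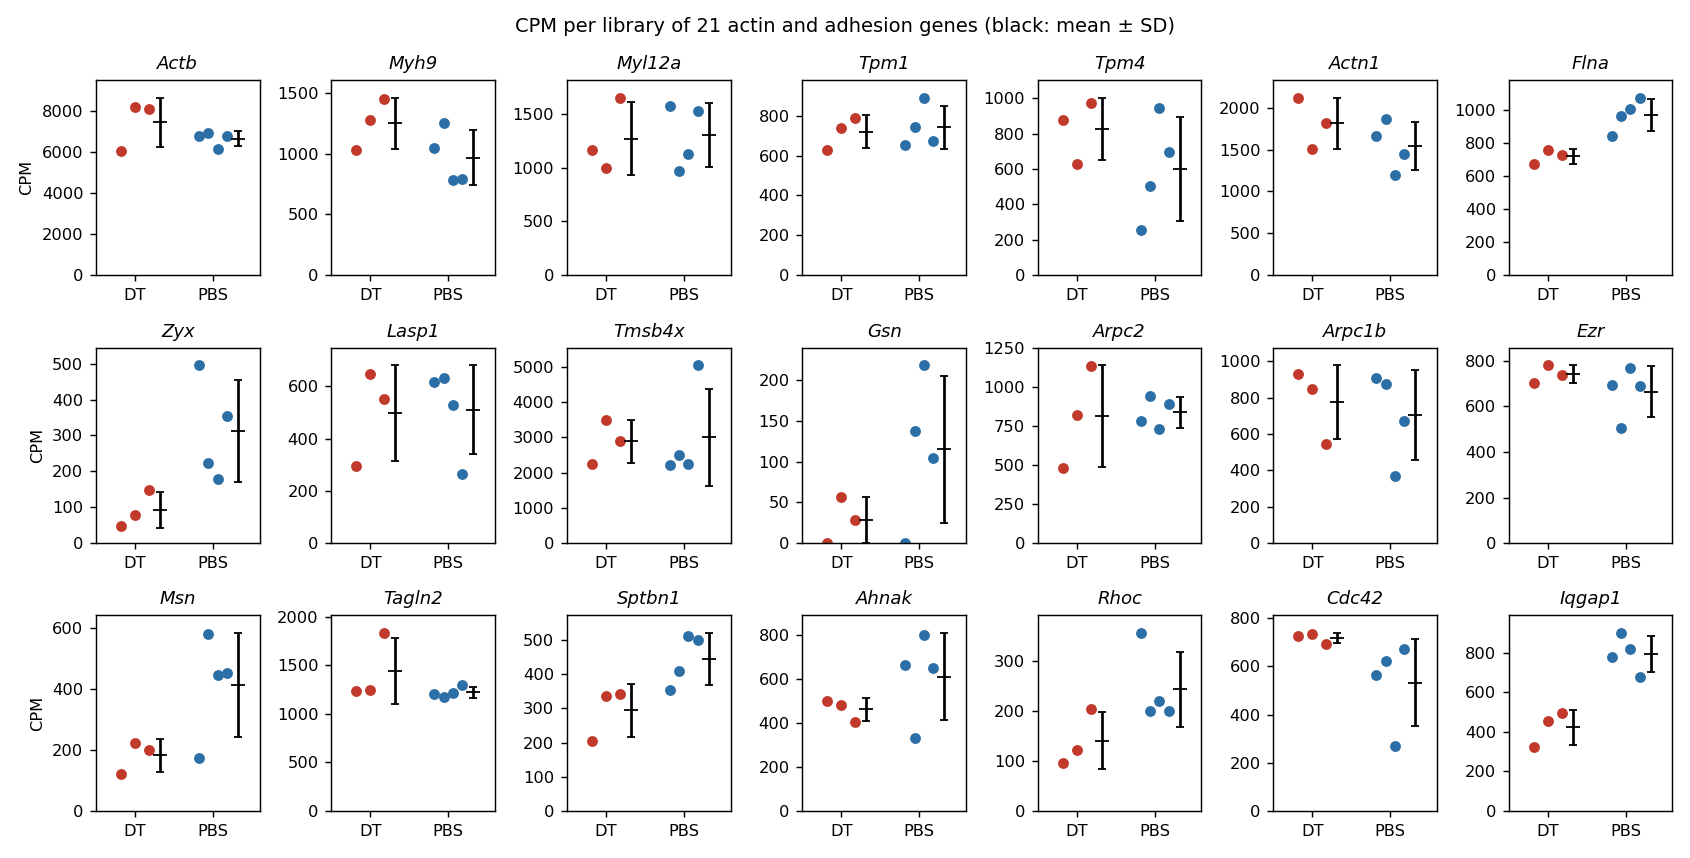
CPM (vertical axis, from 0) of 21 actin and adhesion genes in the 3 DT libraries (red, left) and the 4 PBS libraries (blue, right), each point a library, with the mean ± SD in black. DT and PBS points do not overlap for Zyx, Flna, Sptbn1, Iqgap1 and Cdc42, and overlap for the other 16.

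Monomer-binding and turnover genes were led by Tmsb4x, whose product thymosin beta-4 sequesters actin monomers. Tmsb4x was at 2252, 3492 and 2909.9 CPM in DT 1 to 3, against 2210.1, 2514, 2236 and 5045 CPM in PBS 1 to 4. PBS 4 stood above the other 6 libraries and the log2 fold change was -0.06 (SE 0.26, edgeR unadjusted p = 0.83), or 0.31 without PBS 4. PBS 4 also had the most reads of 9 leukocyte genes (such as Coro1a, Lcp1 and Ptprc), which summed to 360, 1528 and 1046 counts in DT 1 to 3, against 248, 0, 203 and 2349 counts in PBS 1 to 4. The macrophage gene Lyz2 had 81, 69 and 330 counts in DT 1 to 3, against 6, 8, 0 and 1522 counts in PBS 1 to 4. The macrophage and monocyte markers as a whole set PBS 4 apart far less. They summed to 9603, 8536 and 10643 counts in DT 1 to 3, against 4494, 8091, 7308 and 10592 counts in PBS 1 to 4. With the macrophage and leukocyte marker share as a covariate the Tmsb4x log2 fold change was -0.18 (edgeR unadjusted p = 0.403). That share joins both lists and comes mostly from the macrophage and monocyte markers. A fit with it therefore does not address the reads of the 9 leukocyte genes by themselves. Cotl1, which encodes a coactosin-like protein and is strongly expressed in leukocytes, was likewise highest in PBS 4, with 1006, 479 and 397 counts in DT 1 to 3, against 112, 8, 391 and 1658 counts in PBS 1 to 4. In DT it did not follow the 9 leukocyte genes: DT 1 had 1006 Cotl1 counts and 360 of theirs, DT 2 had 479 and 1528. A leukocyte source of these reads was not tested. Arpc5, a subunit of the Arp2/3 complex, was also highest in PBS 4, at 604 CPM, where the other 6 libraries ran from 138 to 380.3 CPM.

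Gsn encodes gelsolin, which severs and caps filaments when calcium rises. It had 0, 304 and 158 counts in DT 1 to 3, against 0, 700, 1061 and 527 counts in PBS 1 to 4. Each group held a library at 0, the DT values lay at the low end, and the log2 fold change was -2.02 (SE 1.98, edgeR unadjusted p = 0.314). Cfl1 (cofilin, a severing protein), Capzb (a capping protein subunit) and Pfn1 (profilin, which feeds monomers to growing ends) averaged 355 CPM in DT and 373 CPM in PBS for Cfl1, 306 CPM in DT and 329 CPM in PBS for Capzb, and 116 CPM in DT and 71.2 CPM in PBS for Pfn1, with log2 fold changes of -0.07, -0.10 and 0.71 and SEs of 0.43, 0.47 and 1.40. Without DT 3 the value for Pfn1 was 0.18, and without DT 1 that for Capzb was 0.15. Tmsb10, the second thymosin gene, averaged 216 ± 65.9 CPM in DT and 167 ± 104 CPM in PBS (log2 fold change 0.38).

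The Arp2/3 complex, which starts branches on existing filaments, showed the narrowest range of fold changes among the role groups with 4 or more tested members. Arpc2 was at 479.8, 823 and 1133 CPM in DT 1 to 3, against 781, 945, 730.4 and 890.3 CPM in PBS 1 to 4. DT 1 was lowest and DT 3 highest, enclosing all PBS libraries, and the log2 fold change was -0.04 (SE 0.31, edgeR unadjusted p = 0.891). Arpc1b was at 929.6, 851 and 543 CPM in DT 1 to 3, against 908, 873, 369 and 671 CPM in PBS 1 to 4, with overlapping groups and a log2 fold change of 0.13 (SE 0.33, edgeR unadjusted p = 0.688). The log2 fold change was 0.33 (SE 1.39) for Arpc3 and -0.09 (SE 0.50) for Arpc5.

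The ERM genes, whose products tie filaments to the plasma membrane, differed among themselves. Msn, which encodes moesin, the ERM protein best known from leukocytes and endothelium, was at 122, 223 and 201 CPM in DT 1 to 3, against 173, 579.9, 446 and 451 CPM in PBS 1 to 4. DT 1 to 3 and PBS 1 were low and PBS 2 to 4 high, so the groups overlapped through PBS 1. Its mean was 182 ± 53.2 CPM in DT and 413 ± 171 CPM in PBS (SD, n = 3 and 4) and its log2 fold change -1.18 (SE 0.50, edgeR unadjusted p = 0.0218), with adjusted p = 1.00 by edgeR, 0.227 by DESeq2 and 0.727 by limma-voom. The 4 low libraries were also the 4 that held Y-linked reads. With their presence as a covariate the log2 fold change was 0.07, beside the median of 0.67 over all genes in that fit, and without PBS 1 it was -1.45. Msn lies on the X chromosome, and the part of sex in its level cannot be told apart from that of the group in these libraries. With the macrophage and leukocyte marker share as a covariate the Msn log2 fold change was -1.37 (edgeR unadjusted p = 0.0115, adjusted p = 1.00). Ezr, which encodes ezrin, the ERM protein of epithelial microvilli, was at 703, 781 and 739 CPM in DT 1 to 3, against 696, 507, 769.6 and 689.7 CPM in PBS 1 to 4. The DT libraries lay within the PBS range but for DT 2, and the log2 fold change was 0.15 (SE 0.32, edgeR unadjusted p = 0.628). Rdx (radixin) averaged 230.2 ± 108 CPM in DT and 281 ± 47.8 CPM in PBS (log2 fold change -0.29), and Vil1 (villin, the bundler of microvillus cores) had 0, 1290 and 238 counts in DT 1 to 3, against 615, 509, 0 and 0 counts in PBS 1 to 4. It was at 0 in DT 1, PBS 3 and PBS 4, and its log2 fold change of 0.79 had an SE of 2.16.

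Of the calponin family, Tagln2 (transgelin-2) was at 1233, 1248 and 1829 CPM in DT 1 to 3, against 1199, 1172, 1216 and 1300.3 CPM in PBS 1 to 4. DT 3 stood above the other 6 libraries, which lay close together, giving a log2 fold change of 0.23 (SE 0.26, edgeR unadjusted p = 0.373) that was 0.02 without DT 3. Cnn3 and Cnn2, which encode calponins 3 and 2, averaged 172 CPM in DT and 163 CPM in PBS for Cnn3, and 24.0 CPM in DT and 31.0 CPM in PBS for Cnn2, with log2 fold changes of 0.07 and -0.37 and SEs of 0.74 and 3.01.

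Spectrins form the lattice under the membrane, and plectin and Ahnak are giant scaffold proteins. Sptbn1, the beta-II spectrin gene, was at 204, 336 and 341 CPM in DT 1 to 3, against 352, 409, 512 and 501 CPM in PBS 1 to 4. The groups did not overlap, with DT lower, but DT 3 and PBS 1 differed by little, and the log2 fold change was -0.59 (SE 0.42, edgeR unadjusted p = 0.168). With the Y-linked covariate, in effect a comparison of DT with PBS 1 alone, the value was -0.26, and without DT 1 it was -0.41. Ahnak was at 503, 482 and 404 CPM in DT 1 to 3, against 664, 334, 803 and 651 CPM in PBS 1 to 4. The DT libraries lay inside the PBS range and the log2 fold change was -0.40 (SE 0.36, edgeR unadjusted p = 0.271). The log2 fold change was -0.32 (SE 0.60) for Plec and 0.22 (SE 0.54) for the alpha-spectrin gene Sptan1.

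Among the small GTPases, the switches that direct filament assembly, Cdc42 and Rhoc leaned in opposite directions without passing the test. Cdc42, known for polarity and filopodia, was at 726, 732 and 695 CPM in DT 1 to 3, against 566, 620.3, 269 and 674 CPM in PBS 1 to 4. The groups did not overlap, with DT higher, though DT 3 exceeded PBS 4 by little and PBS 3 was far below the rest. The log2 fold change was 0.43 (SE 0.35, edgeR unadjusted p = 0.221), and 0.20 without PBS 3. Rhoc was at 96.2, 121 and 204 CPM in DT 1 to 3, against 356, 199.7, 219 and 199 CPM in PBS 1 to 4. DT 3 lay just inside the PBS range, PBS 1 stood high, and the log2 fold change was -0.79 (SE 0.63, edgeR unadjusted p = 0.212). Rhoa, which drives stress fibres, Rhob, an endosomal and rapidly induced relative, and Rac1, which drives lamellipodia, had log2 fold changes of -0.0049, -0.18 and 0.01. Their SEs were 0.70, 0.62 and 0.46.

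Of the GTPase effectors, Iqgap1 was the member with both separate groups and a narrow spread. Its product is a scaffold that binds active Cdc42 and Rac1, actin and calmodulin. Iqgap1 was at 323, 452 and 493 CPM in DT 1 to 3, against 779, 898, 817 and 678 CPM in PBS 1 to 4. The highest DT library was well below the lowest PBS library, at 423 ± 88.7 CPM in DT and 793 ± 91.2 CPM in PBS (SD, n = 3 and 4). The log2 fold change was -0.91 (SE 0.34, edgeR unadjusted p = 0.0103), which did not pass by edgeR (adjusted p = 1.00) or limma-voom (adjusted p = 0.507) and passed as lower by DESeq2 (adjusted p = 0.0295). It stayed between -1.04 and -0.77 when 1 library was left out and was -0.88 with the leukocyte marker share as a covariate. With the Y-linked covariate it was also -0.88, but that fit in effect compares DT with PBS 1 alone, with the shift over all genes described for Flna. It is therefore not a separate check on the part of sex. The formin gene Diaph1, whose product elongates unbranched filaments, and the kinase genes Rock1 and Rock2, which act on myosin light chains, stood at log2 fold changes of -0.48, 0.58 and -0.25, with SEs of 0.52, 0.60 and 0.48. Diaph1 was highest in PBS 1, and without that library its log2 fold change was 0.26.

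**Figure D3:**
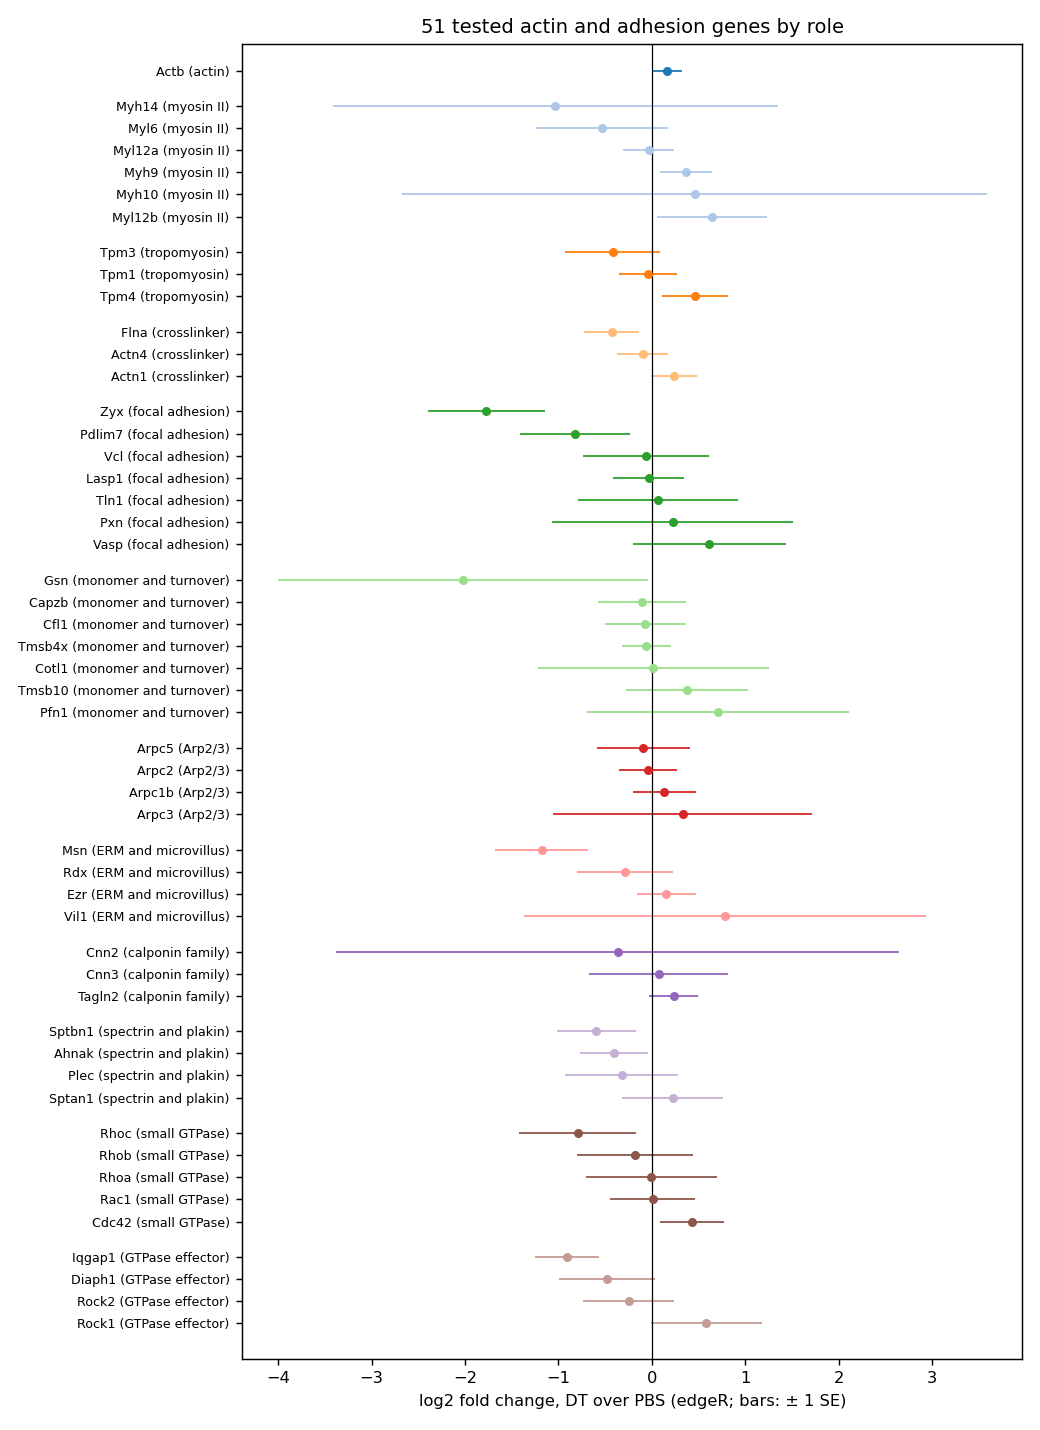
Log2 fold change of DT over PBS for the 51 tested actin and adhesion genes (horizontal axis, points, with bars of 1 SE either way), grouped by role from actin at the top to GTPase effectors at the bottom. Most bars cross or come near 0, Zyx at -1.77, Msn at -1.18 and Iqgap1 at -0.91 lie farthest from it in units of their SE, and the widest bars belong to Myh10, Cnn2, Myh14, Vil1 and Gsn, which had libraries at 0.

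The make-up of each gene family was compared as shares of the reads of the family, whose members need not replace each other: the light chains, for example, include the regulatory Myl12a and Myl12b and the essential Myl6. Counts were not divided by length, since each is a 3′ end, and shares of reads need not be shares of molecules. Myh9 held 91.5% to 100.0% of heavy chain reads in DT and 88.2% to 97.4% in PBS, and Myl12a held 63.4% to 79.0% of light chain reads in DT and 63.1% to 94.0% in PBS. For tropomyosins the share of Tpm4 was 46.7% ± 6.0 in DT and 34.8% ± 11.1 in PBS, and that of Tpm1 41.0% ± 5.2 in DT and 45.5% ± 5.0 in PBS (SD, n = 3 and 4). Among ERM genes Ezr held 64.7% ± 6.4 of reads in DT and 49.4% ± 9.4 in PBS, and Msn 15.7% ± 3.8 in DT and 29.9% ± 11.8 in PBS. Rock1 held 34.7% to 68.4% of ROCK reads in DT and 21.4% to 47.3% in PBS. None of the 26 shares compared was without overlap between the groups. The smallest exact permutation p was 0.114, for Ezr (two-sided, and 0.743 after adjustment over the 26). Over 35 arrangements no p below 0.0571 was possible, so no share could pass the threshold used for genes, before or after adjustment. The test therefore cannot decide whether the make-up of a family differed. Shares within a family also depend on each other, so the 26 are not independent: Actn1 and Actn4 had the same permutation p of 0.4.

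**Figure D4:**
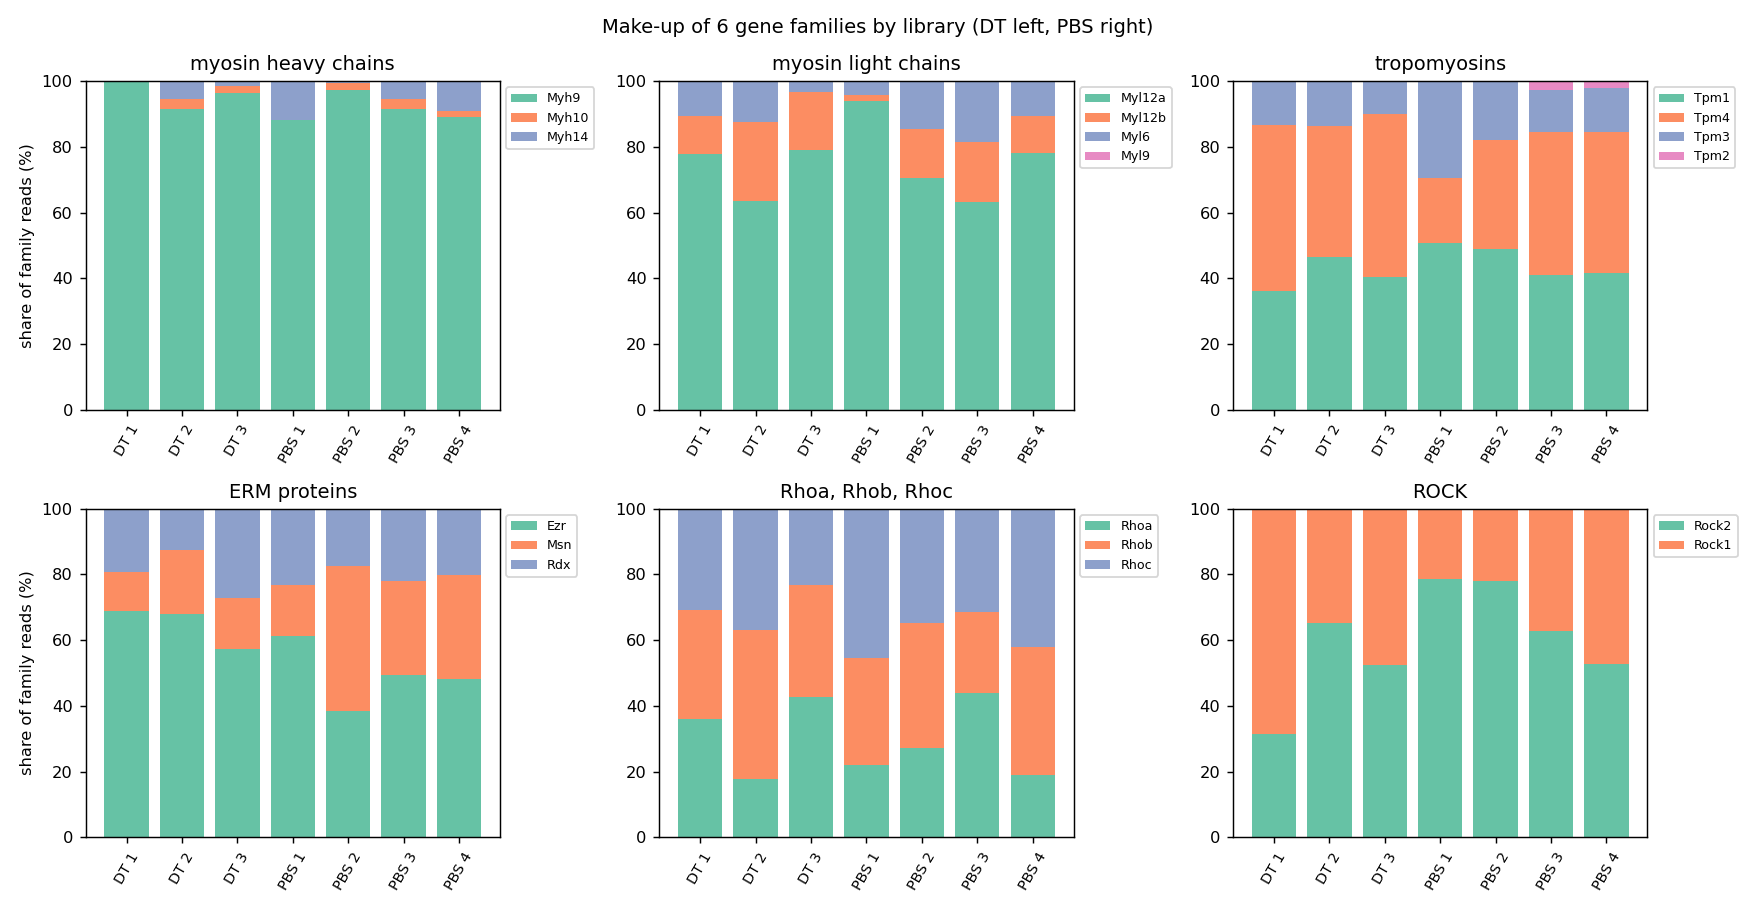
Share of the reads of each of 6 gene families (vertical axis, percent of family reads) taken by each gene, by library, with DT 1 to 3 on the left and PBS 1 to 4 on the right of each panel. Myh9 and Myl12a hold most reads of their families in all libraries, Ezr holds the larger part of ERM reads in DT, and Rock1 ranges from 34.7% to 68.4% of ROCK reads in DT and from 21.4% to 47.3% in PBS.

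Beyond the members, 104 further genes of actin nucleation, filament turnover, crosslinking, adhesion, myosin, GTPase signalling and the SRF pathway were examined. Of these 87 were tested, 38 with positive and 49 with negative log2 fold changes and a median of -0.19, beside -0.02 over all tested genes, of which 50.7% were negative. By edgeR 0 passed in either direction and by limma-voom 0 passed. At an edgeR unadjusted p below 0.05 there was 1 lower gene of the 87 and no (0) higher one, where 2.11% of all tested genes were lower and 1.39% higher. DESeq2 called 1 of the 87 as lower and 0 as higher, where it called 1.07% of all tested genes as lower and 0.377% as higher. In the groups of adhesion, turnover, nucleation, GTPase signalling and myosin genes, the gene with the smallest p was Fermt2 (kindlin-2, which activates integrins with talin; log2 fold change -0.76), Wdr1 (a cofilin partner; -0.91), Abi1 (a subunit of the WAVE complex; -0.77), Pak2 (a kinase activated by Cdc42 and Rac; -0.53) and Myo9b (an unconventional myosin; -3.63). Their edgeR unadjusted p-values ran from 0.0986 to 0.292. The value for Myo9b had an SE of 3.40, from 0, 4 and 63 counts in DT 1 to 3, against 557, 154, 0 and 294 counts in PBS 1 to 4.

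SRF, serum response factor, is the transcription factor that links actin to gene expression: its MRTF partners are held by actin monomers, and the pair acts at a sequence called the CArG box. Srf was at 413, 232 and 300.2 CPM in DT 1 to 3, against 492, 511, 343 and 742 CPM in PBS 1 to 4. DT 1 lay inside the PBS range and the log2 fold change was -0.73 (SE 0.40, edgeR unadjusted p = 0.0783), with adjusted p = 1.00 by edgeR, 0.843 by DESeq2 and 0.663 by limma-voom. The CArG box, searched on both strands from 250 bases before to 50 bases after each annotated start in the RefSeq promoter table (GRCm38.p6), was found at 6 of the 47 members in that table (12.8%), where 1.7% of 6117 tested genes and 1.63% of all 32851 promoters held it. The 47 include members that were not tested, Actg1 and Myl9 with a box among them. Of the tested members, 4 held the box and 40 did not. Actb, Cotl1, Diaph1, Plec, Pxn, Rac1 and Rock1 were not matched. The windows around the 6 boxes are shown because this motif is a feature that the choice of members did not use, with the box in capitals and the strand of the gene read 5′ to 3′.
Vcl: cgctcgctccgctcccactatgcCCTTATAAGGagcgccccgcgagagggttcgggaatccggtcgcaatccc
Vil1: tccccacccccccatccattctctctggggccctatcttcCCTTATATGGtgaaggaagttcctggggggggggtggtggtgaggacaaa
Cnn2: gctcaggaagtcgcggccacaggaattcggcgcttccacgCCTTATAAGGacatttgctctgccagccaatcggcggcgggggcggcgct
Myl6: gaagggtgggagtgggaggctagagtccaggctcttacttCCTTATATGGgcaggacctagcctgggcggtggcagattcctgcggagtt
Myl9: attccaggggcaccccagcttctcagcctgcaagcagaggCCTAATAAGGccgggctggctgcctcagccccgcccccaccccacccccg
Actg1: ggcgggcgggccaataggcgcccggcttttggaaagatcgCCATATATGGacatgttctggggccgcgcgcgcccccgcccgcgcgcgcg
The windows lie at chr14:20929148-20929220, + strand, for Vcl, chr1:74409271-74409360, + strand, for Vil1, chr10:79988504-79988593, + strand, for Cnn2, chr10:128493010-128493099, - strand, for Myl6, chr2:156775263-156775352, + strand, for Myl9, and chr11:120348536-120348625, - strand, for Actg1. All 6 are upstream of the annotated start, with the box beginning 227 bases before it in Vcl, 73 in Vil1, 56 in Cnn2, 50 in Myl6, 161 in Myl9 and 90 in Actg1. Vcl and Cnn2 share one form of the box and Vil1 and Myl6 another. Of these genes Vcl, Vil1, Cnn2 and Myl6 were tested, with log2 fold changes of -0.06, 0.79, -0.37 and -0.53 (SEs 0.68, 2.16, 3.01 and 0.71). Their median was -0.21, beside -0.04 for the 40 tested members with no box in the window. Neither Zyx, Iqgap1, Flna nor Msn had the box in this window, which says nothing about SRF at those genes. Over the tested genes in the promoter table, the 104 with a box had a median log2 fold change of -0.20 and those without one -0.01. No difference between genes with and without a box was tested. A match to GGAATG, the core of the site read by TEAD factors, on either strand, was present at 10 of the 47 members (21.3%) and 14.11% of the 6117 tested genes. All 10 were tested members, and 34 tested members had no match.

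Differences between libraries of 1 group set the precision of these values. The median coefficient of variation of the 17 tested members above 500 CPM was 16.9% in DT and 18.6% in PBS, beside 22.2% and 27.0% over all 317 tested genes of that level. For the 26 members at 100 to 500 CPM it was 46.9% in DT and 41.1% in PBS, beside 47.8% and 49.5%. For the 8 at 20 to 100 CPM it was 95.7% in DT and 80.9% in PBS. Of the 54 members, 46 had counts in all 7 libraries, and of the 24 values at 0 among the others 7 were in DT 1, the library with the fewest genes above 0 (5419).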

How the data were processed

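EpCAM-positive cells were profiled as bulk 3′-end RNA libraries, prepared with a Lexogen QuantSeq FWD kit, per the labels. The deposited table holds raw counts per gene symbol, per the file header and the values, which are whole numbers with differing totals. Reads were placed on mm9, per the submitters' processing notes. For the aligner, counter, annotation, UMIs, strand and reads with several matches, nothing was given in the sources used here. GENCODE M21 and RefSeq GRCm38.p6 served only for names, chromosomes, transcript ends and promoter letters, and no coordinate was carried between builds.

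Members and gene lists were chosen with earlier results of these data known, so counts over them are descriptions. No p was adjusted over a list, apart from the permutation p-values of the family shares. Counts were filtered with filterByExpr (7688 genes kept, with 97.5% of counts), scaled by TMM and tested with edgeR 4.0.16 (robust quasi-likelihood fit, DT against PBS, no covariate, Benjamini-Hochberg adjustment over all tested genes, threshold 0.05) in R 4.3.3. DESeq2 1.42.0 and limma 3.58.1 (voom with sample weights) were alternatives, as were other scalings and filters, a replicate block, 2 covariates and leaving out each library. Exact permutation tests over libraries used scipy 1.17.1. The fits were tested on simulated data, where DESeq2 made many false calls and edgeR few. Intervals and limits from 0 counts cover counting error only.

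Values per library are given for the best-read member and the member with the smallest p in each role group, and for members called by any tool. The remaining members are all given more briefly under their role. Of other pathway genes, the one with the smallest p of its list is described, and 1 gene called by DESeq2 is not reported here. No 2 libraries agreed within sampling noise. The titles do not state that replicate numbers pair DT and PBS libraries, so the main fit used no replicate block, and a pairing is not excluded.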

Additional observations from a re-analysis of the deposited data

Results flagged for a closer look

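Within the 4 PBS libraries, 3 of 21 described genes had a library far from the rest by Dixon's ratio, the gap to the nearest library over the whole range. A nominal rate would give 1.05 of 21, but only for independent genes with normally spread values. The rate over all tested genes is not given here, so the 3 are not read as an excess. Actb in PBS 3, at 6143 CPM beside 6782 to 6902 CPM in the other PBS libraries, had a ratio of 0.843. Tmsb4x in PBS 4, at 5045 CPM, had a ratio of 0.893, and that library also had the most leukocyte marker counts (2349). Rhoc in PBS 1, at 356 CPM, had a ratio of 0.873, and PBS 1 was the PBS library with Y-linked reads. The DT libraries, all with Y-linked reads too, had Rhoc at 96.2, 121 and 204 CPM. A link of Tmsb4x to leukocyte reads or of Rhoc to Y-linked reads was not tested.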

How the results depend on the processing

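The count of actin and adhesion genes called by edgeR was 0 in both directions under every scaling, filter, covariate and block tried and without any 1 library, and DESeq2 called 2 as lower. Over all tested genes, edgeR called 0 as higher and 3 as lower. The counts, higher then lower, were 29 and 82 by DESeq2 and 6 and 6 by limma-voom. Without a filter they were 1 and 7, keeping genes from an average log2 CPM of 3 gave 1 higher, keeping those from 8 gave 5 lower, the Y-linked covariate gave 23 higher and the leukocyte covariate 1 higher. Across the fits without 1 library there were 0 to 1 higher and 1 to 4 lower. DESeq2 called 1 other pathway gene as lower and the Y-linked covariate 1 as higher (Myo5b, log2 fold change 12.3, where the comparison is with PBS 1 and its 0 counts). The median log2 fold change of the other pathway genes was -0.45 with the filter at 8, 0.048 by limma-voom, 0.065 with the Y-linked and 0.079 with the leukocyte covariate. That of the members ran from -0.25 (without DT 3) to 0.086 (without DT 1) and was 0.051 by limma-voom and 0.074 with the Y-linked covariate. That of all tested genes was 0.21 by limma-voom and 0.67 with the Y-linked covariate.

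Replicate numbers in the titles are not stated to pair libraries. Same-numbered DT and PBS libraries deviated together with correlations of -0.0569 to 0.0253 over 733 genes, of 3 DT libraries 1 was closest to the PBS library of its number, and a replicate block gave 6 higher and 6 lower genes and 0 members.

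Most reversals concerned values near 0. By limma-voom the log2 fold change was 0.0037 for Myl12a, 0.033 for Tpm1, 0.27 for Lasp1, 0.0017 for Tmsb4x and 0.058 for Arpc2. With the block it was 0.049 for Myl12a and 0.29 for Tmsb4x. With the Y-linked covariate it was 0.14 for Tpm1, 0.38 for Tmsb4x, 10.23 for Gsn (0 counts in PBS 1), 0.056 for Arpc2, -0.23 for Arpc1b and 0.074 for Msn, and with the leukocyte covariate 0.21 for Lasp1. Without 1 library, the range was -0.28 to 0.11 for Myl12a, -0.12 to 0.045 for Tpm1, -0.27 to 0.21 for Lasp1, -0.22 to 0.31 for Tmsb4x, -0.37 to 0.20 for Arpc2 and -0.089 to 0.33 for Arpc1b. The values with the Y-linked covariate follow from comparing DT in effect with PBS 1 alone, which for Gsn was at 0. For the other reversals the cause was not tested.

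With 3 and 4 libraries, members at 100 to 500 CPM had median coefficients of variation of 46.9% in DT and 41.1% in PBS, which limits what this number of libraries can resolve.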
